A study of Mus musculus with 10 samples.

Results

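In mouse embryos at E13.5, 1540 regions of open chromatin in the cochlea lay more than 300 kb from the body of any coding gene. They were found in the peak lists of 5 ATAC-seq libraries, an assay in which the Tn5 transposase cuts accessible DNA. In each library overlapping autosomal peaks were merged, the 50000 strongest by −log10 p were kept, and each was reduced to a window of 501 bp around its summit. Windows that overlapped between libraries were joined into 76102 regions. Of these, 51646 had a window in both knockout or all 3 wildtype libraries, and the desert regions are the 1540 of them that passed the distance limit. The remaining 50106 at 300 kb or less served for comparison.

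The chromatin libraries came from SoxC double knockout embryos (2 libraries, replicates 1 and 2) and wildtype embryos (3 libraries, replicates 1 to 3). The titles call the samples whole organ, while the protocol describes whole epithelia of the cochlear duct, freed by enzymes and not sorted. Which genes were deleted is not stated in the labels, and strains are given only for single-cell libraries of the same study, which were not used here. There the knockout was Pax2cre SoxC fl/fl, in which a Cre under Pax2 control deletes the floxed genes in the otic lineage, and the wildtype was p27GFP. For Sox4 there were 3 CUT&RUN replicates, made with a guinea pig antibody from GFP positive progenitors that were sorted from p27kip1-GFP mice of wildtype genotype. Nothing given here says whether a library holds 1 embryo or several, so p-values measure the spread between these libraries.

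Gene deserts are long stretches without coding genes, and the deserts beside developmental transcription factors are known to hold enhancers that act over long distances. SoxC proteins such as Sox4 and Sox11 are HMG-box transcription factors that bind short motifs of the form AACAAAG or AACAATG and are required for hair cell formation in the cochlea. At this stage the prosensory cells of the future organ of Corti express Sox2, Jag1 and the cell cycle inhibitor p27kip1.

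The deserts have no coding genes, yet some desert regions sat on starts of long non-coding RNAs (lncRNAs) and microRNAs, and these are the members whose sequence could be shown. Below are 6 of the 29 lncRNA promoters that overlapped desert regions, from RefSeq (GRCm38, also called mm10), each running from 250 bases before to 50 after the annotated start. They were chosen for regions discussed later: a promoter in the desert beside Sox11, the start of the host gene of miR-100, and 4 promoters with a difference between genotypes. The other promoters with a difference are not shown. Capitals mark matches to AACAAAG or AACAATG on either strand, written on the strand of the gene.
Gm30350 (chr12:26966827-26967126, plus strand): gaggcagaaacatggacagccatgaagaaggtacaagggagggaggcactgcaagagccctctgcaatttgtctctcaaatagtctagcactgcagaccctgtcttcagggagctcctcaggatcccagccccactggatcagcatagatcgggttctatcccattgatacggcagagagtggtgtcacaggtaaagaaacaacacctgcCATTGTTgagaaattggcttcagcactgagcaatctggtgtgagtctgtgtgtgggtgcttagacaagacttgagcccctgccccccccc
Mir100hg (chr9:41474643-41474942, plus strand): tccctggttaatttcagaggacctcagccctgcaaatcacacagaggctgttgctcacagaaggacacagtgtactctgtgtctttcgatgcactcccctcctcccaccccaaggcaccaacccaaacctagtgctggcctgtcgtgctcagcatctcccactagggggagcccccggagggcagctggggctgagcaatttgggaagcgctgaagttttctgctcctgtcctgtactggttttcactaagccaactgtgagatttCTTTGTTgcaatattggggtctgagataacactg
Gm51670 (chr9:41579597-41579896, minus strand): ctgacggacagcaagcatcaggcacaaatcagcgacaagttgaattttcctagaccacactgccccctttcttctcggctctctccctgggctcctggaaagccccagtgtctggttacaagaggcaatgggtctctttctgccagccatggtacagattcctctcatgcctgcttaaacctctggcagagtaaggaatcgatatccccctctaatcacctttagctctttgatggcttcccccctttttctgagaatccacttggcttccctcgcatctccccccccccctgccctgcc
Gm32810 (chr1:112416869-112417168, minus strand): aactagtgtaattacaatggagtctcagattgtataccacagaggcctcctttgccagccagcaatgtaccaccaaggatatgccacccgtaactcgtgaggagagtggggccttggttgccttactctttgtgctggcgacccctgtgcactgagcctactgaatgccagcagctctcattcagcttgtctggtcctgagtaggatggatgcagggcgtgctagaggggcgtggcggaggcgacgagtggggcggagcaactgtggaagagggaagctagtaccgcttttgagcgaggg
Gm33073 (chr13:83120488-83120787, minus strand): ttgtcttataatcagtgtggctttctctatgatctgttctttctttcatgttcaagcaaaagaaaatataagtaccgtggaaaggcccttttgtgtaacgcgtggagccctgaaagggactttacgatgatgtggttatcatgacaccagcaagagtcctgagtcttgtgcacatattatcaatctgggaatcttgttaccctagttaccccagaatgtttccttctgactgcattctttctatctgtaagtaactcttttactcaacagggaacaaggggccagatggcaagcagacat
Gm32642 (chr8:103571607-103571906, minus strand): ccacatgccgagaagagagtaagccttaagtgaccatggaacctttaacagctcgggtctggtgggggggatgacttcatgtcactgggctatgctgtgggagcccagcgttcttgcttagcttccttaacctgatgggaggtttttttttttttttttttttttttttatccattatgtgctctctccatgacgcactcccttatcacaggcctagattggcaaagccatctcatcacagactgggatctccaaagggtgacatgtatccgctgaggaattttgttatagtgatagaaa

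The mature microRNAs below come from hairpins that overlapped a desert region or lay within 20 kb of one. Capitals mark the seed, bases 2 to 8, which pairs with target RNAs. miR-344-3p and miR-344c-3p share one seed, and miR-100-5p and miR-99a-5p share another.
miR-344-3p (Mir344 and Mir344-2): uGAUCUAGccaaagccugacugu
miR-344c-3p: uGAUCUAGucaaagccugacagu
miR-100-5p: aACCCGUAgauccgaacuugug
miR-99a-5p: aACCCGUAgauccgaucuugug
miR-125b-5p: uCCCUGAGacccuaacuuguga
let-7c-5p: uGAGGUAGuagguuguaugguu

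The merged lists held 208902 and 192810 autosomal peaks in the knockout libraries and 165038, 145099 and 173032 in the wildtype libraries. The lists give no read totals, so depth is unknown and libraries were compared at equal rank. The peak at rank 50000 had a −log10 p of 104 and 50.5 in the knockout libraries and of 19.0, 10.5 and 8.75 in the wildtype libraries, so the cut-off was stricter in both knockout lists. Of the 8 otic epithelium markers checked (among them Pax2, Gata3 and Sox2), 7 in both knockout libraries and 7 to 8 in the wildtype libraries had a kept window within 1 kb of a gene end. Of 5 general epithelium genes, 5 had one in both knockout libraries and 4 in each wildtype library. None of 4 genes of other organs had one in any library. Of 4 autosomal mesenchyme genes 2 to 3 had one, of 6 blood and endothelium genes 2 to 3, and of 4 neuron and glia genes 2 to 3, in ranges over all 5 libraries. Their part in the results was not tested. Because the tissue was not sorted, fewer cells with an open region and less opening per cell cannot be told apart.

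The desert regions leaned to the wildtype side. Of the 1540, 82 (5.32%, 95% exact interval 4.26 to 6.57) were knockout-only, that is, in both knockout libraries but none of the wildtype ones, and 435 (28.2%, 26.0 to 30.6) were wildtype-only, in all 3 wildtype and no knockout library. Over all 51646 regions the shares were 11.7% knockout-only and 9.66% wildtype-only. Another 695 desert regions (45.1%) were in all 5 libraries, 191 in both knockout and some wildtype libraries, and 137 in all 3 wildtype and 1 knockout library. Of the desert regions found in a single genotype, 84.1% were wildtype-only (80.7 to 87.2), against 43.2% of such regions at 300 kb or less (42.3 to 44.2). The intervals cover counting error only, and the genotype classes carry no test because the selection itself used presence in the libraries.

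The lean grew with distance from genes and did not begin at the limit. The knockout-only share had its highest value, 18.3%, within 10 kb of genes and its lowest, 2.72% (4 of 147), beyond 1000 kb. The wildtype-only share was 8.01% inside coding genes, 6.22% within 10 kb of them, 9.04% at 10 to 50 kb, 14.5% at 50 to 100 kb, 18.6% at 100 to 200 kb and 25.2% at 200 to 300 kb. Within the deserts it was 22.8% at 300 to 400 kb, 27.4% at 400 to 500 kb, 29.4% at 500 to 700 kb, 35.0% at 700 to 1000 kb and 41.5% beyond (61 of 147 regions).

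**Figure D1:**
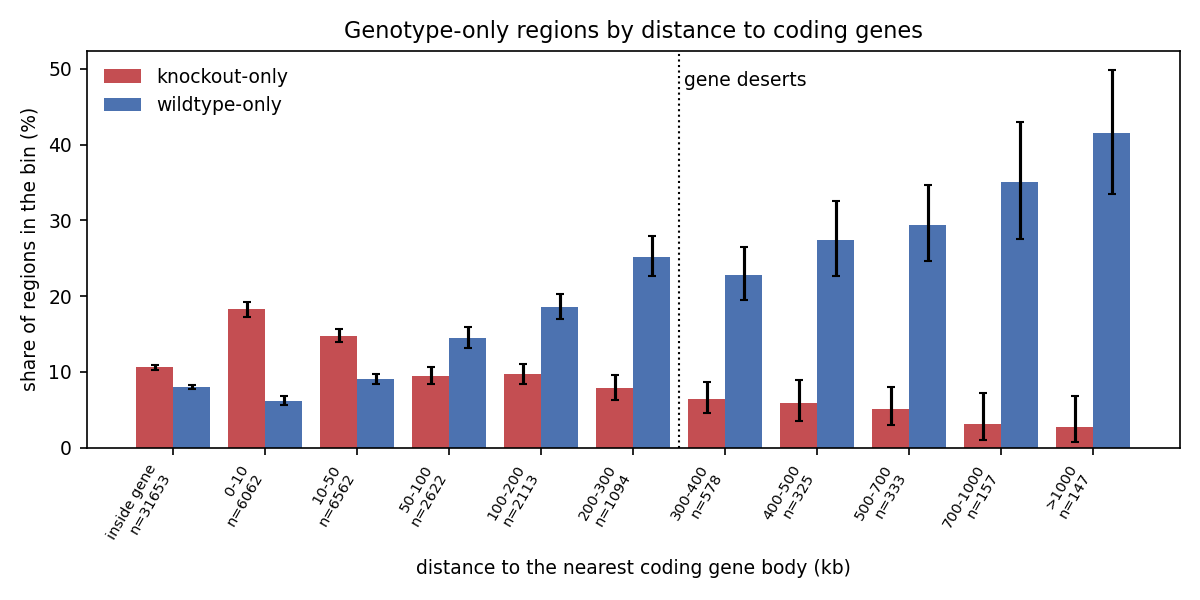
Share of regions that are knockout-only (red) and wildtype-only (blue) by distance to the nearest coding gene body, with 95% exact binomial intervals for counting error and the number of regions under each bin. Between the bins within 10 kb and beyond 1000 kb, the knockout-only bars go down, 18.3% to 2.72%, and the wildtype-only bars go up, 6.22% to 41.5%.

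Few of the single-genotype regions lacked a peak altogether in the other genotype. Among the 82 knockout-only desert regions, 41 were matched by a weaker peak in each of the 3 full wildtype lists and 5 were matched in none. Among the 435 wildtype-only ones, 362 had a weaker peak in both full knockout lists, 47 in 1 and 26 in neither. Without knockout replicates 1 and 2 there were 154 and 140 knockout-only desert regions, and without wildtype replicate 1 there were 758 wildtype-only ones. The split between the classes depended on the rank limit. With every deposited peak used, 998 desert regions were knockout-only and 601 wildtype-only, so 37.6% of the single-genotype ones were wildtype-only, against 10.8% at 300 kb or less.

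In each library the share of kept windows that lay in deserts could be measured without choosing regions by genotype. It was 2.28% and 2.40% in the knockout libraries and 3.17%, 4.16% and 5.01% in the wildtype libraries. Both knockout libraries were below every wildtype library. The means were 2.34% ± 0.086 (SD, n = 2) and 4.11% ± 0.917 (SD, n = 3), a difference of −1.78 percentage points (exact permutation test, two-sided p = 0.2, where 0.1 is the smallest that 10 arrangements allow). The groups were also separate among the 1000 strongest peaks, with 0.6% and 0.8% in the knockout libraries and 1.3%, 2% and 2.8% in the wildtype libraries. The order of the 5 libraries by desert share was the reverse of their order by −log10 p at rank 50000. Genotype and the significance of the lists therefore cannot be told apart in this measure, and the range of the wildtype libraries was wider than the difference between the means.

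**Figure D2:**
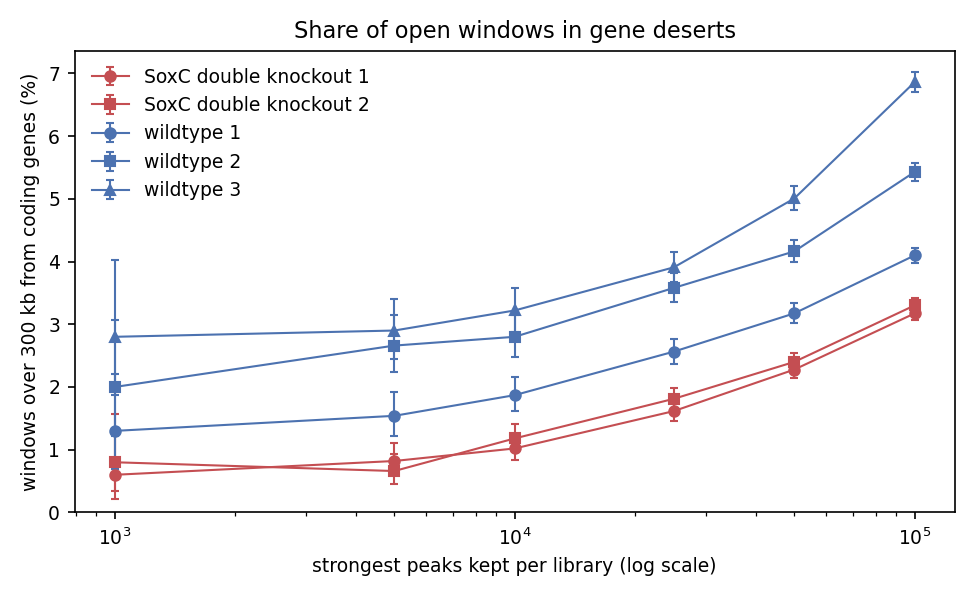
Share of the kept windows of each library that lie over 300 kb from coding genes, against the number of strongest peaks kept (log axis), with 95% exact binomial intervals. The 2 knockout libraries (red) stay below the 3 wildtype libraries (blue) at each of the 6 limits drawn, and at 50000 peaks they are at 2.28% and 2.40% against 3.17% to 5.01%.

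A graded measure compared the rank of the strongest peak over each region in every library, as −log2(rank), where higher values mean a stronger peak within its own library. The test was limma across the 61044 regions with a peak in all 5 full lists, 1415 of them in deserts. In deserts 577 regions (40.8%) were lower in the knockout and 74 (5.23%) were higher at an adjusted p under 0.05, against 15% lower and 12.9% higher over all regions tested. The median difference, knockout minus wildtype, was −0.78 in deserts and −0.04 over all regions tested. For the regions at 300 kb or less, kept by the same presence rule, the median was 0.15, with 16.1% lower and 16.6% higher. At 100 to 300 kb from genes it was −0.38, with 30.0% lower and 9.04% higher. Presence was decided on these same ranks, so the calls are not independent of the selection. Of 362 tested wildtype-only desert regions 315 were lower and 0 higher. Of 41 tested knockout-only ones 0 were lower and 20 higher. Both knockout ranks were worse than every wildtype rank in 783 desert regions (55.3%), against 30.5% over all regions tested, and better in 187 (13.2%), against 27.5%.

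The regions present in all 5 libraries showed the same lean. Of these 695 desert regions 191 (27.5%) were lower and 28 (4.03%) higher in the knockout, against 3400 (12.3%) lower and 3730 higher of the 27622 regions of this class at 300 kb or less. Beyond 1000 kb from genes, 66 of 126 tested desert regions (52.4%) were lower and 4 higher. The fold enrichment over local background, which is the authors' value for each peak, was also compared. Its median over desert regions was 12.6 and 10.9 in the knockout libraries and 10.6, 8.64 and 8.02 in the wildtype libraries. Both knockout medians were thus above every wildtype median, the reverse of the direction by rank. At 300 kb or less the median was 12.7 and 11.6 in the knockout libraries and 10.3, 7.68 and 6.79 in the wildtype libraries. Fitted on quantile-normalized log2 fold enrichment, 364 of the 1415 desert regions were lower and 155 higher, against 7623 lower and 7612 higher of all 61044. Without knockout replicate 1 the median difference by rank was −0.74 in deserts and −0.02 over all regions tested. Without knockout replicate 2 it was −0.79 and −0.08. Each of these fits rests on 1 knockout library.

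**Figure D3:**
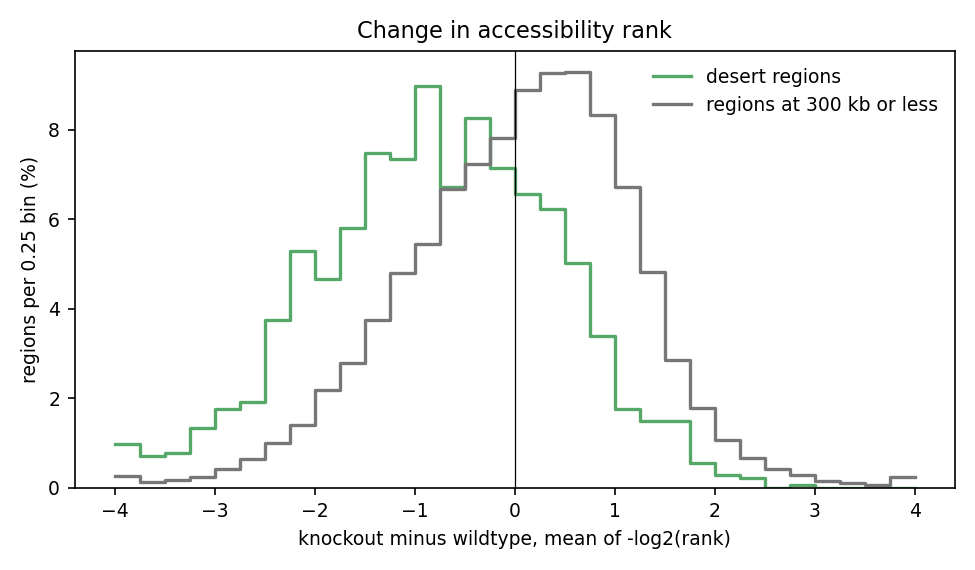
Distribution of the difference between genotypes in mean −log2(rank), knockout minus wildtype, for the 1415 desert regions tested (green) and 44670 regions at 300 kb or less (grey), in bins of 0.25, with values beyond the axis counted in the end bins. The desert curve lies to the left, with 72.9% of its regions below 0, against 45.0% of the regions nearer to genes.

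Of the desert regions lower in the knockout, the 6 with the smallest p lay 529 kb or more from the nearest coding gene. The region with the largest difference among them (chr14:83008511-83009018) lay 2985 kb from Olfm4, which encodes a secreted glycoprotein, and 1435 kb from Pcdh17, a protocadherin gene. Its rank was 113495 and 105403 in the knockout libraries and 5975, 2183 and 885 in the wildtype libraries. The groups were far apart, and the fold enrichment separated them too, at 4.22 and 3.73 in knockout and 24.5, 23.4 and 24.6 in wildtype. The difference in −log2(rank) was −5.60 ± 0.56 (SE, adjusted p = 1.8e-05). A second region of the same desert (chr14:80701020-80701579) ranked 124862 and 89413 in the knockout libraries and 11279, 7601 and 9560 in the wildtype libraries.

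A region between Megf9, which encodes a membrane protein with EGF-like domains, and Gm11232 (chr4:71063803-71064329) ranked 110595 and 105979 in the knockout libraries and 11054, 5391 and 5630 in the wildtype libraries. Its difference was −3.96 ± 0.38 (SE, adjusted p = 1.21e-05). The region 539 kb from Gpc5, a glypican gene, and 2869 kb from Slitrk5, which encodes a synaptic adhesion protein (chr14:114552215-114552766), ranked 120789 and 84295 in the knockout libraries and 7657, 5046 and 9380 in the wildtype libraries. Between Fat3, an atypical cadherin gene, and Chordc1 the difference was −4.24 ± 0.42 (SE, adjusted p = 1.52e-05), and beside Luzp2 it was −3.75 ± 0.36 (SE, adjusted p = 1.22e-05). In all 6 every knockout rank was worse than every wildtype rank.

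The desert regions higher in the knockout had smaller differences. The first by p (chr9:41501677-41502230) lay inside the desert between Ubash3b, a phosphatase gene, and Gm40514. It ranked 5217 and 9057 in the knockout libraries and 50866, 68318 and 43276 in the wildtype libraries, a difference of 2.95 ± 0.37 (SE, adjusted p = 8.33e-05). Next came 2 regions in the desert between Jag1 and Btbd3, at 383 and 402 kb from Jag1, which encodes a Notch ligand of the prosensory domain. The nearer one (chr2:137499476-137500005) ranked 13951 and 14804 in knockout and 60742, 99519 and 64353 in wildtype, and was knockout-only. The other (chr2:137518479-137519033) ranked 4092 and 6877 in knockout and 25066, 24869 and 33383 in wildtype. Their differences were 2.34 ± 0.35 (SE, adjusted p = 0.000314) and 2.37 ± 0.38 (SE, adjusted p = 0.000442). The remaining 3 lay 433 kb from Bcl11b, a zinc finger factor gene, 429 kb from Slit2, which encodes a guidance ligand for Robo receptors, and 582 kb from Pla2g4a, a phospholipase gene. Their differences were 2.11, 1.88 and 2.30, with adjusted p of 0.000856, 0.0019 and 0.00147.

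Among the desert regions chosen for presence in all 5 libraries, the region with the best worst rank (chr9:84785725-84786274), between Bckdhb, a gene of branched-chain amino acid breakdown, and Tent5a, ranked 49 and 164 in the knockout libraries and 51, 57 and 23 in the wildtype libraries. Its fold enrichment was 22.8 and 25.0 in knockout and 26.3, 23.3 and 22.6 in wildtype. It was followed by regions in the deserts of Tcf4 (367 kb away), Zeb2, Slc16a7 (415 kb), Fat1 (672 kb) and Nmbr. In these 6 the worst knockout rank ran up to 1711 and the worst wildtype rank up to 1707.

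Among wildtype-only regions, the best worst ranks after the Olfm4 region were found beside Plod2, a collagen-modifying enzyme gene (322 kb), Tbc1d32, Ndn, Gpc5 and Gsdmc. The Plod2 region (chr9:92930471-92931008) ranked 72926 and 59172 in the knockout libraries and 8359, 2738 and 2079 in the wildtype libraries. The region between Myc, the proto-oncogene of a bHLH factor, and Gsdmc (chr15:62902920-62903465) ranked 67622 and 56028 in knockout and 7447, 6228 and 10352 in wildtype. Its −log10 p was 60.2 and 40.9 in knockout and 136, 79.5 and 42.1 in wildtype, so by significance the groups overlapped. Over all 435 wildtype-only desert regions the median −log10 p was 41.1 and 20.5 in the knockout libraries and 33.7, 23.6 and 20.5 in the wildtype libraries, which did not separate the genotypes. Their median fold enrichment was 5.97 and 4.97 in knockout and 9.65, 8.16 and 7.50 in wildtype.

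Among knockout-only regions, the best worst ranks lay beside Jag1 (given above), Ptpru, Sall3, Plk2, Rps24 and Slit2. The Ptpru region, 337 kb from this receptor phosphatase gene (chr4:131431167-131431677), ranked 13890 and 19822 in the knockout libraries and 52872, 54407 and 142379 in the wildtype libraries. The Plk2 region, 301 kb from the gene of a polo-like kinase (chr13:110701828-110702328), ranked 19497 and 22410 in knockout, and no wildtype list held a peak there. The region 642 kb from Sall3, a zinc finger factor gene, ranked 20866 and 22366 in knockout and 62289 and 79602 in wildtype replicates 1 and 2, with no peak in replicate 3.

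The autosomes held 503 gaps of more than 600 kb between coding genes, and 344 of them (68.4%) held at least 1 of these regions. All but 1 region lay in such a gap, and the exception lay at a chromosome end. The gaps with regions had a median length of 1190 kb and those without 746 kb. The gaps with regions held a median of 3 and at most 34, and 28 gaps with 10 or more held 402 regions (26.1%). Neighbouring regions in a gap were a median of 59.7 kb apart, and 14.3% of the intervals were under 10 kb. More knockout-only than wildtype-only regions were found in 26 gaps, and the reverse in 194. The distance to the nearest coding gene had a median of 452 kb and a maximum of 2187 kb.

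The desert between Slc10a2, a bile acid transporter gene, and Efnb2, which encodes an ephrin ligand, held the most, 34 regions in 3512 kb. Of these 2 were knockout-only, 9 wildtype-only and 17 in all 5 libraries, and of the 33 tested 3 were higher and 13 lower in the knockout. The desert between Bcl11a, a zinc finger repressor gene, and Fancl held 24, of which 0 were knockout-only and 7 wildtype-only. In the desert between the adhesion receptor genes Adgrl2 and Adgrl4 there were 23, with 0 knockout-only and 8 wildtype-only. Between Zeb2, a zinc finger repressor gene, and Acvr2a, an activin receptor gene, 21 regions held 2 knockout-only and 8 wildtype-only ones, and 11 of the 19 tested were lower in the knockout with 0 higher. The deserts from Nmbr, a neuropeptide receptor gene, to Cited2, which encodes a transcriptional coregulator, and from Celf4, an RNA-binding protein gene, to Pik3c3 held 18 each. There 9 of 18 and 12 of 17 tested regions were lower and none higher. Over all desert regions tested 40.8% were lower and 5.23% higher, and over all regions tested 15% and 12.9%. Whether single deserts differed from deserts in general was not tested. The widest desert with a region, 4542 kb between the protocadherin genes Pcdh20 and Pcdh9, held 5. In the desert between Mki67 and Mgmt, chosen after its values were seen, 4 of 13 tested regions were higher in the knockout and 2 lower.

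**Figure D4:**
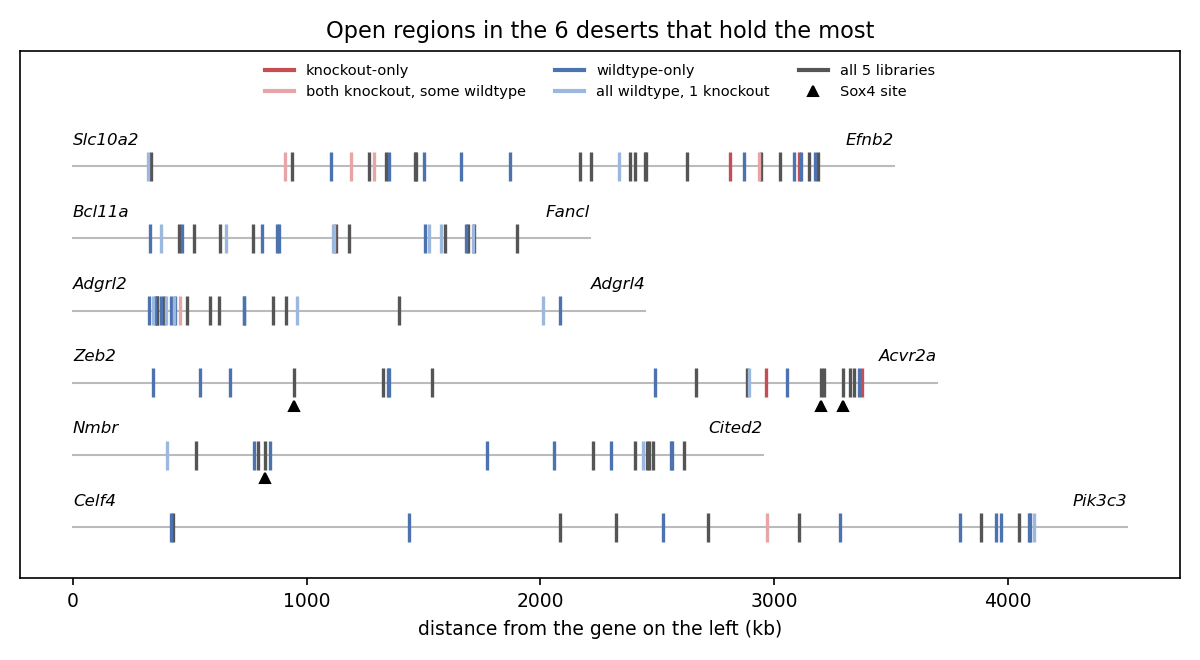
Positions of open regions in the 6 deserts that hold the most, in kb from the end of the gene on the left, with each tick coloured by the libraries that hold the region and triangles at Sox4 sites. Knockout-only ticks are found in the deserts of Efnb2 and Zeb2 (2 each), and wildtype-only ticks in all 6 (7 to 9 each).

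Genes of transcription factors and adhesion proteins held a larger share of the genes beside these deserts than of all coding genes. Members of the transcription factor families listed made up 59 of the 632 genes that flank a desert with regions (9.34%), 12 of 302 genes that flank a gap without one (3.97%), and 432 of 20665 autosomal coding genes (2.09%). Adhesion and synapse families made up 82, 31 (10.3%) and 424 (2.05%) of the same sets. Receptors of smell and taste made up 0, 1 and 1508 (7.30%). The counts describe position, and the differences between the sets were not tested.

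Of 137 autosomal genes on a list of otic regulators, 31 flanked 36 deserts that held 224 regions. Of these regions 17 were knockout-only, 54 wildtype-only and 102 in all 5 libraries. In the rank fit 18 of 208 tested (8.65%) were higher in the knockout and 74 (35.6%) lower, so this subset leaned as the deserts did in general. The deserts with more higher than lower calls numbered 6, those with more lower than higher calls 21. Among ligands, Efnb2 (above), Jag1, Bmp2, Bmp4, Gdf6, Inhba and Shh flanked such deserts, and among receptors Epha4 and Erbb4. The transcription factors included Sox2, Sox4, Sox9, Sox11, Gata3, Myc, Nr2f1, Nr2f2, Sall1, Sall3, Isl1, Bcl11b, Dach1, Etv1, Nfia, Nfib, Tbx3 and Irx2, with the transcriptional regulators Id2, Id4 and Lmo4. The deserts of Myc had the most one-sided calls, with 9 of 10 tested regions lower towards Gsdmc and 2 of 3 towards A1bg, and none higher.

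The desert between Jag1 and Btbd3 held 14 regions, and they did not move together. The pair at 383 and 402 kb from Jag1 was higher in the knockout. Further in, regions at 571, 589, 640 and 692 kb were lower. The one at 571 kb ranked 11793 and 10017 in the knockout libraries and 2249, 1654 and 1368 in the wildtype libraries, with a difference of −2.66 ± 0.45 (SE, adjusted p = 0.000715). The one at 640 kb overlapped a Sox4 site and ranked 12574 and 8468 in knockout and 2452, 1455 and 1272 in wildtype. In between, the region at 543 kb ranked 6519 and 5090 in knockout and 7952, 8142 and 4945 in wildtype, and the groups overlapped. Another lower region lay at 374 kb, so the 5 lower and 2 higher calls were interleaved along the desert. All 14 regions were tested, and over all desert regions tested 40.8% were lower and 5.23% higher.

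Between Sox2, the HMG-box factor of the prosensory domain, and Atp11b, 16 regions stood in 1102 kb. Of 14 tested, 4 were lower and 1 higher in the knockout. The higher one, 502 kb from Sox2, ranked 4805 and 5763 in the knockout libraries and 11517, 11215 and 21973 in the wildtype libraries, a difference of 1.43 ± 0.41 (SE, adjusted p = 0.0166). One of the lower regions, 461 kb from Sox2, overlapped a Sox4 site and ranked 32857 and 39240 in knockout and 13510, 11095 and 15859 in wildtype. In the Gata3 desert 4 of 10 tested regions were lower and 1 higher. There the region 888 kb from Gata3, a zinc finger factor gene of the prosensory domain, ranked 46168 and 34914 in knockout and 6039, 7089 and 15440 in wildtype, a difference of −2.20 ± 0.42 (SE, adjusted p = 0.00151). In the Lmo4 desert 6 of 9 were lower, and the one with the largest difference, 390 kb from the gene, had ranks of 37291 and 54121 in knockout and 8650, 5231 and 5460 in wildtype. For scale, 40.8% of all desert regions tested were lower and 5.23% higher, against 15% and 12.9% of all regions tested. Whether these 3 deserts differed from deserts in general was not tested.

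The SoxC genes themselves border deserts. The desert between Prl5a1 and Sox4 held 7 regions, of which 1 was higher and 1 lower in the knockout. The lower one, 319 kb from Sox4, ranked 14955 and 18987 in the knockout libraries and 3723, 2518 and 4958 in the wildtype libraries, a difference of −2.23 ± 0.42 (SE, adjusted p = 0.00151). The higher one, 404 kb from Sox4, ranked 1988 and 4909 in knockout and 5881, 13082 and 6907 in wildtype, a difference of 1.37 ± 0.49 (SE, adjusted p = 0.0451). Sox11 had 6 regions towards Cmpk2 and 3 towards Dcdc2c. None of the 9 was lower, and 2 were higher. The one 305 kb from Sox11 ranked 867 and 4946 in knockout and 10814, 6890 and 9128 in wildtype, a difference of 2.09 ± 0.58 (SE, adjusted p = 0.0141). At Isl1, a LIM-homeodomain factor gene, 3 of 6 regions were lower, among them one at 531 kb that ranked 34260 and 31849 in knockout and 8623, 3474 and 3119 in wildtype. Of all desert regions tested, 40.8% were lower and 5.23% higher, and the difference of these deserts from that share was not tested.

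Sox4 sites, regions bound among the 20000 strongest peaks in at least 2 of the 3 replicates, numbered 1708 over the autosomes. They overlapped 20 desert regions (1.30%, 95% exact interval 0.795 to 2.00), against 2.12% of all 51646 regions and 1.35% of the regions 10 to 300 kb from genes. By class, 1 of 435 wildtype-only regions had a site, and 0 of 82 knockout-only regions. The latter allows a share of up to roughly 3.66%, an approximate limit (3 of 82) and not an exact one. The other 19 were among the 695 regions open in all 5 libraries (2.73%, 1.65 to 4.24). At 300 kb or less, 0.25% of knockout-only, 1.21% of wildtype-only and 3.44% of all-5 regions had a site. For all-5 regions 10 to 300 kb from genes the share was 2.14%. With so low a share near genes, 0 of 82 does not set the knockout-only desert regions apart. The interval for the all-5 desert regions includes both 2.14% and 3.44%. Of all Sox4 sites 105 lay in deserts, and 20 of these (19.0%) in the open regions described here. For scale, 1095 of all 51646 regions overlapped one of the 1708 sites, a count of regions and not of sites. Of the 10 desert sites found in all 3 replicates, 6 did. Without Sox4 replicate 2 the overlap was 6 desert regions, and without replicate 3 it was 10. Many Sox4 peaks were tied at the rank limit (16258 in replicate 1 and 7479 in replicate 3), and which were kept followed position, not strength. With all tied peaks kept there were 2121 sites and 26 desert regions with one. With all of them left out there were 1503 and 20. Of the desert windows of single Sox4 replicates, 1.68%, 2.50% and 2.11% overlapped a desert region in replicates 1 to 3. The CUT&RUN data used here include no control antibody.

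The 20 desert regions with a Sox4 site were mostly stronger by rank in wildtype. In the rank fit 1 was higher and 12 lower in the knockout, and the median difference was −2.16. Both knockout ranks were worse than every wildtype rank in 14, and both were better in 1, where over all regions tested this holds for 30.5% and 27.5%. Over all desert regions tested it holds for 55.3% and 13.2%. In the rank fit 40.8% of them were lower and 5.23% higher, with a median of −0.78, so the deserts in general leaned this way. For the 695 desert regions open in all 5 libraries the shares were 27.5% and 4.03%, with a median of −0.48. The counts with a Sox4 site cover 20 regions, of which 19 were open in all libraries, and the difference from other desert regions was not tested. For comparison, the median was −0.01 over the 1060 tested regions with a site at 300 kb or less, with 16.0% higher and 18.4% lower.

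The region 318 kb from Prkd1, the gene of protein kinase D1, and 380 kb from G2e3 (chr12:50967384-50967930) carried a site in all 3 Sox4 replicates. It ranked 9412 and 7341 in the knockout libraries and 812, 280 and 247 in the wildtype libraries, a difference of −4.44 ± 0.62 (SE, adjusted p = 0.000183). The groups were far apart by rank, yet the fold enrichment was closer, at 12.5 and 14.1 in knockout and 16.9, 16.6 and 15.3 in wildtype. The region 430 kb from Igfbp7, which encodes a secreted growth factor binding protein, and 3180 kb from the latrophilin gene Adgrl3 ranked 17842 and 10860 in knockout and 3402, 1087 and 1442 in wildtype. It too had all 3 replicates, with a difference of −2.99 ± 0.51 (SE, adjusted p = 0.000801). Its fold enrichment overlapped between the groups, at 20.3 and 20.8 in knockout and 21.5, 21.5 and 18.0 in wildtype.

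The other 4 regions with a site in all 3 replicates did not pass the test. The one between Ets1, an ETS factor gene, and Kirrel3, an adhesion gene (chr9:33799500-33800496), ranked 3417 and 1705 in the knockout libraries and 2538, 2638 and 3091 in the wildtype libraries, and the groups overlapped. The one 709 kb from Sox2 ranked 8101 and 9447 in knockout and 2927, 7964 and 6305 in wildtype, with a difference of −0.73 ± 0.46 (SE, adjusted p = 0.24). Both of its knockout ranks were worse than every wildtype rank, as they were between Gm15501 and Tenm4. Between Gm15501 and the teneurin gene Tenm4 the difference was −0.82 ± 0.37 (SE, adjusted p = 0.102), and between Cntnap5b and the cadherin gene Cdh20 it was −2.07 ± 0.78 (SE, adjusted p = 0.058).

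Some of the strongest desert regions carried a site in 2 replicates. The region 821 kb from Nmbr and 2131 kb from Cited2 (chr10:15592156-15592688) ranked 1711 and 643 in the knockout libraries and 147, 140 and 30 in the wildtype libraries, a difference of −3.62 ± 0.97 (SE, adjusted p = 0.0117). The Zeb2 desert had 3 sites, at 948, 3200 and 3297 kb from Zeb2. The first (chr2:46065327-46065932) ranked 1042 and 831 in knockout and 189, 75 and 117 in wildtype, and the last (chr2:48414839-48415536) ranked 20897 and 22005 in knockout and 1888, 2027 and 2947 in wildtype. All 3 were lower in the knockout, with adjusted p of 0.0157, 0.0337 and 9.4e-05. The region 468 kb from the contactin gene Cntn5 was lower as well (−2.24 ± 0.63, SE, adjusted p = 0.0148). The fold enrichment of the Cntn5 region overlapped between groups, at 19.6 and 20.8 in knockout and 21.5, 18.3 and 19.5 in wildtype. That of the first Zeb2 site did too, at 15.5 and 18.4 against 19.0, 20.5 and 18.3. At the Nmbr region it did not, at 20.3 and 24.9 against 29.0, 25.7 and 25.9. The sole region higher in the knockout lay 347 kb from Tafa5 and ranked 9356 and 5344 in knockout and 20270, 17350 and 31521 in wildtype. The sole wildtype-only one (chr10:55537268-55537805), 476 kb from Tbc1d32, a gene of cilia and hedgehog signalling, ranked 63123 and 54636 in knockout and 8679, 4088 and 4556 in wildtype.

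**Figure D5:**
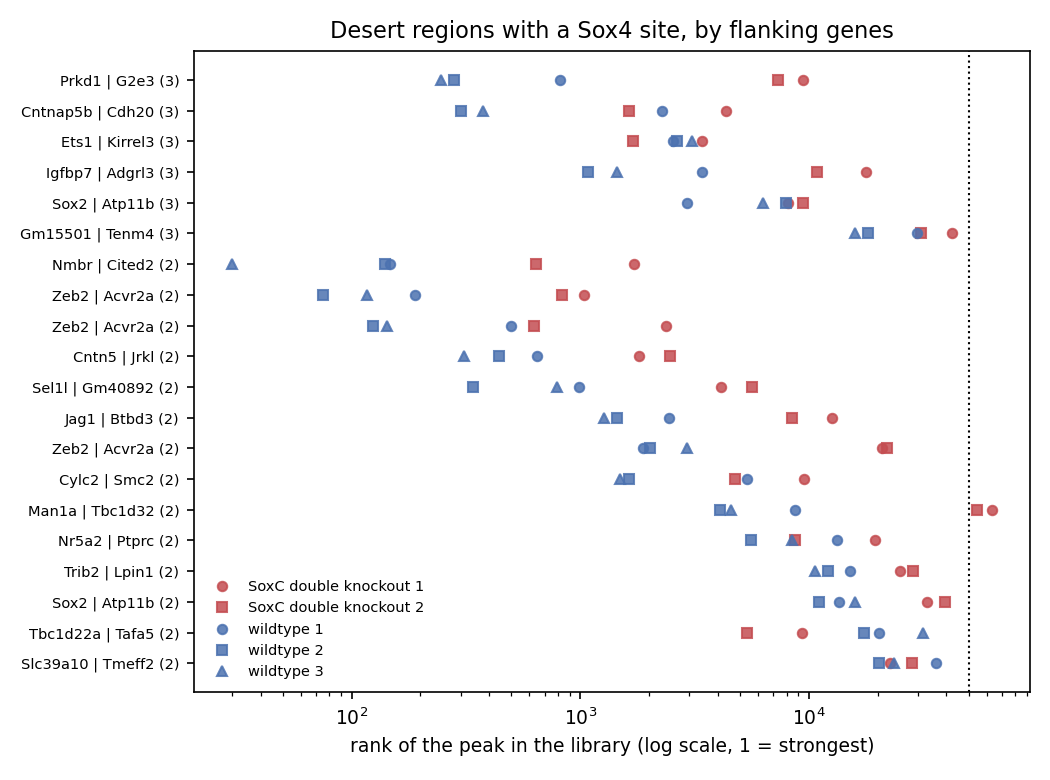
Rank of the ATAC peak in each library (log axis, 1 is the strongest) for the 20 desert regions with a Sox4 site, labelled by flanking genes, with the number of Sox4 replicates in parentheses and a dotted line at rank 50000. In 14 rows both knockout points (red) lie to the right of every wildtype point (blue), and in 1 row, Tbc1d22a and Tafa5, to the left.

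Most Sox4 sites in deserts lay outside these regions. The strongest of all (chr4:64497669-64498269), 451 kb from Tnc, an extracellular matrix gene, and 626 kb from Pappa, was rank 1 in all 3 replicates. Next were 3 sites near the start of chromosome 9 (between chr9:3001970 and chr9:3033692), from 302 to 333 kb from Alkbh8, at ranks 2 to 25. These sites were found in all 3 replicates and are among the 10 such desert sites counted above. No list of artefact regions was applied to these peaks, so whether they reflect Sox4 binding was not tested.

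LncRNA gene bodies covered 292 desert regions (19.0%), against 12.8% of the regions at 300 kb or less. Of the 31396 promoter windows searched, 29 were overlapped by desert regions, and all 29 belonged to lncRNAs, since the distance rule leaves out coding promoters. The regions on them were 1.88% of all desert regions, and 3.11% of the regions nearer to genes overlapped an lncRNA promoter. Of these 29 regions 22 were in all 5 libraries, 0 knockout-only and 2 wildtype-only, and 2 of 28 tested were higher and 6 lower in the knockout. Over all regions tested 12.9% were higher and 15% lower, and over desert regions 5.23% and 40.8%. A match to AACAAAG or AACAATG on either strand was found in 9 of the 29 promoters (31.0%), against 9.27% of all promoters and 11.8% of lncRNA promoters. The motifs of 7 letters were searched as exact strings, and a match is not evidence of binding.

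Among the promoters shown above, Gm32642 in the desert between the cadherin genes Cdh11 and Cdh5 had a wildtype-only region, at ranks 99622 and 83224 in the knockout libraries and 13118, 15887 and 11297 in the wildtype libraries. The difference was −2.77 ± 0.34 (SE, adjusted p = 6.81e-05). At Gm32810, between Dsel and Cntnap5a, the summits lay within 23 bp of the annotated start in every library, and the ranks were 44341 and 34454 in knockout and 9886, 7413 and 5150 in wildtype. Its difference was −2.44 ± 0.38 (SE, adjusted p = 0.000423). At Gm33073, 383 kb from Mef2c, a MADS-box factor gene, the ranks were 29346 and 32053 in knockout and 21574, 10017 and 10087 in wildtype. Gm30350 in the Sox11 desert holds 1 AACAATG match and ranked 5132 and 8291 in knockout and 5216, 4565 and 5159 in wildtype, with overlapping groups.

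Of 919 autosomal microRNA hairpins 37 lay in deserts, 9 of them within 20 kb of an open region and 4 under one. The desert between Ubash3b and Gm40514 holds the cluster of miR-100, let-7a-2 and miR-125b-1 inside the lncRNA Mir100hg. Its 7 regions included 0 knockout-only and 0 wildtype-only ones, and 3 were higher in the knockout with none lower. Among all desert regions tested 5.23% were higher and 40.8% lower. The region on the Mir100 hairpin (chr9:41531429-41532015) ranked 25424 and 9814 in the knockout libraries and 37275, 74426 and 46265 in the wildtype libraries, a difference of 1.68 ± 0.42 (SE, adjusted p = 0.00855). The promoter region of Gm51670, which lies 1842 bp from the Mir125b-1 hairpin, ranked 4105 and 7968 in knockout and 10719, 12416 and 14874 in wildtype, with a difference of 1.13 ± 0.41 (SE, adjusted p = 0.0461). A nearer region, 1794 bp from that hairpin, ranked 38931 and 32438 in knockout and 24408, 31008 and 60061 in wildtype, and the groups overlapped. Its difference was 0.006 ± 0.39 (SE, adjusted p = 0.992). The start of Mir100hg ranked 8678 and 10536 in knockout and 13858, 19051 and 16948 in wildtype (0.79 ± 0.36, SE, adjusted p = 0.112).

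The paralogous cluster of miR-99a and let-7c-1 on chromosome 16 had a region 4605 bp from the Mir99a hairpin that went the other way. It was wildtype-only, at ranks 158676 and 135359 in the knockout libraries and 38925, 38330 and 31765 in the wildtype libraries, a difference of −2.02 ± 0.40 (SE, adjusted p = 0.00205). The desert that holds this cluster, between Usp25 and Cxadr, had 5 of 9 tested regions lower and 0 higher. Deserts in general had 40.8% of tested regions lower and 5.23% higher. The difference between the clusters was not tested.

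The desert between Gm51483 and Ndn on chromosome 7 held 3 regions, each on a hairpin of the miR-344 family and each wildtype-only. The region on Mir344-2 (chr7:61939915-61940421) ranked 66118 and 84750 in the knockout libraries and 8868, 5895 and 2730 in the wildtype libraries, a difference of −3.84 ± 0.44 (SE, adjusted p = 4.64e-05). The region on Mir344 ranked 103393 and 66881 in knockout and 11439, 4525 and 10068 in wildtype, with adjusted p = 7.81e-05. The region on Mir344c had no peak in knockout replicate 1, so it was not tested, and ranked 119094 in knockout replicate 2 and 36216, 36850 and 37345 in wildtype. Another family member, Mir344i, 263 kb from the nearest coding gene and so outside the limit, was open in all 5 libraries, at ranks 29122 and 20601 in knockout and 8291, 5552 and 2703 in wildtype. The family has 13 hairpins here, and Mir344 and Mir344-2 give the identical mature sequence shown above. Reads from near-identical copies can be placed on the wrong one, so the values of single copies are uncertain.

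The distance limit cut through a smooth range. The regions just over it lay 300039 bp from Tle4, 300102 bp from Irx4 and 300304 bp from Gpc5, and were wildtype-only, in all wildtype and 1 knockout library, and in all 5. Those just under it lay 299728 bp from Auts2, 299859 bp from Ppargc1a and 299973 bp from Ubash3b, and all 3 were in all 5 libraries. If every annotated gene counted, coding or not, 45 regions would remain, 0 knockout-only, 17 wildtype-only and 18 in all 5 libraries.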

How the data were processed

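The peak lists of 5 ATAC-seq and 3 Sox4 CUT&RUN samples were used as the authors deposited them. Per the submitters' processing notes the tools were STAR, MACS2 and deepTools, with UMI-tools for Sox4, and the builds mm10 and GRCm38; roles and versions are not given in the sources used here. Each deposited list gives, per peak and per sample, the fold enrichment over local background (a ratio), −log10 p, −log10 q and the summit as an offset in bp, with no read counts, so depth is unknown. The names of the knockout lists state a p threshold and a cap on peaks that the wildtype names do not. Only autosomes were used, because the wildtype lists hold no X or Y peaks. The single-cell matrices of 2 libraries carry no gene names and were not used.

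Overlapping or touching peaks were merged per library (Python 3.11.15, pandas 2.3.3). Peaks tied in −log10 p were ranked by position. At the limit 10, 1623 and 2016 wildtype and 1 and 196 knockout peaks were tied. For Sox4, 16258, 112 and 7479 peaks were tied at the limit in replicates 1 to 3, of which 7476, 100 and 1039 were kept. Coding genes were 20665 entries of a RefSeq table (GRCm38.p6). limma 3.58.1 in R 4.3.3 (empirical Bayes with trend, Benjamini-Hochberg over all 61044 regions, called under 0.05) tested −log2(rank). On simulated data for this comparison, 200 of 61044 regions were changed by log2 1, 2 or 4, and 3, 144 and 199 of them were recovered. In the data 9138 regions were called lower and 7899 higher, so the Benjamini-Hochberg cut-off was less strict there. The simulated counts therefore do not give the share of differences missed in the data. Groups came from titles and genotype labels. Named regions were the 6 with the best worst rank per class, up to 10 with Sox4 sites, the 6 with the smallest limma p each way, the 6 fullest deserts, the widest desert and 3 on each side of the distance limit. The otic regulators that flank a desert were named too, except 1 that is not reported here; single regions in their deserts, promoters and microRNAs were picked after their values were seen. The desert regions, lists and tests were chosen with earlier results of these data known. Alternatives are given in the closing section.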

Additional observations from a re-analysis of the deposited data

How the results depend on the processing

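The desert share per library was lower in the knockout under all 16 alternatives run. Counts followed the limits. With the 10000 (chosen after seeing the data), 25000 and 100000 strongest peaks and with all peaks, 196, 626, 3614 and 6862 desert regions were found. Of these 12, 30, 267 and 998 were knockout-only and 54, 245, 1714 and 2968 in all 5 libraries. Wildtype-only regions numbered 92, 213 and 740 with the first 3 limits. Over 200 kb from genes there were 2634 (168 knockout-only, 711 wildtype-only, 1176 in all 5 libraries, 47 with a Sox4 site), and over 500 kb 637 (26, 214, 268 and 6). With every gene counted there were 45 (0, 17, 18 and 1). Leaving out 1 ATAC library gave 102 to 154 knockout-only regions (154 and 140 without knockout replicates 1 and 2) and 488 to 758 wildtype-only ones (758 without wildtype replicate 1). Desert regions with a Sox4 site numbered 47 with a looser rank limit on Sox4 peaks, 81 with all of them, 6 with a site in all 3 replicates and 42 with a further deposited list of replicate 1 taken alone. Leaving out 1 library gave 6 to 20, with 6 without Sox4 replicate 2 and 10 without replicate 3. In the rank test, quantile-normalized fold enrichment gave 155 higher and 364 lower desert regions, and rank relative to list length gave 139 and 424, while its median over all regions was 0.28. Leaving out 1 library gave 21 to 88 higher and 338 to 628 lower. With a replicate block 105 were higher and 603 lower. Wildtype replicate 3 has no knockout partner, so under the block it adds nothing to the difference between genotypes. The median over desert regions was −0.66 both with the block and without that library. Same-numbered libraries deviated together only weakly (correlations of 0.0997 and 0.0592, with 2 pairs), so the numbers were not treated as pairs. Rules for peaks tied at the limit, also chosen after seeing the data, moved no count by more than 1.5 times. The cause of these shifts was not tested. Unknown depth, differing peak-calling settings and the few libraries limit every comparison of genotypes.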
